A study of Homo sapiens with 2 samples.

Results

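Kinesins are motor proteins that use ATP to move along microtubules or to shorten them. One branch of the family builds and positions the mitotic spindle, moves chromosomes and completes cell division. Another branch carries vesicles, endosomes, mitochondria and ciliary material through the cytoplasm, mostly towards the plus ends of microtubules. IGF2BP3 is an RNA-binding protein that stabilises mRNAs and is known as a reader of N6-methyladenosine (m6A), and here its binding to the mRNAs of mitotic and of transport motors is set side by side.

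The kinesin genes were chosen by name, as the protein-coding genes of the GENCODE 44 annotation whose symbol is KIF or KIFC followed by a number. This gave 42 of 20046 protein-coding genes. The rule uses no value of the peaks. By their known roles 15 were counted as mitotic, 15 as transport and 12 as other kinesins. The last class held ciliary, signalling and little-studied members as well as KIF21A and KIF21B. This division was made with earlier results of these data known, so the comparison of the classes is a description. A peak was counted for a gene when it overlapped an exon of any of its transcripts by at least 1 bp, and such a peak is called exonic below.

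The peaks came from LACE-seq, in which UV light joins RNA to bound protein, fragments held by IGF2BP3 are pulled down with an antibody, and cDNA copied from them is amplified linearly and sequenced. The cells were OE-19, an established cell line derived from a cancer of the gastric cardia and lower esophagus, with no treatment named in the labels. Replicates 1 and 2 formed a single group, with 21142 and 20799 peaks, and no control library was analysed here. The epithelial genes EPCAM, CDH1, KRT8, KRT18 and KRT19 each had at least 1 exonic peak in both lists. Each peak had a fold enrichment, the ratio of reads at its summit to the local background as the authors' peak caller gave it, and the number of reads piled up at the summit could be recovered, its median being 22 in each list. Both values belong to the summit, which need not lie in the exon that the peak overlaps. The total reads per library are unknown. Peaks carry no strand. A gene without a peak may be unbound or too scarce as RNA to be seen, and these cannot be told apart here.

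The 6 sequences that follow show the strongest shared site of KIF5B, KIF16B, KIF18B, KIF3B, KIF21B and KIF27, since the description of binding turns on these places. KIF13B also had shared sites, the best of which would stand after that of KIF18B in this order (lower percentile 63.0), but its sequence is not printed here. Each is 29 nt of hg38 centred on the summit of replicate 1, read 5′ to 3′ on the strand of the gene, and the capital marks the summit base. They are ordered by how high the weaker of the overlapping peaks ranked within its list. For KIF3B this summit lies outside the stretch that the replicates share.
KIF5B, chr10:32056320-32056348, minus strand, 5′ UTR: gcccggcctgctctTcgcgaggaggaaga
KIF16B, chr20:16273231-16273259, minus strand, 3′ UTR: ggggtagagccaggGgtgatggaggaacc
KIF18B, chr17:44926229-44926257, minus strand, 3′ UTR of some transcripts: tggaggacggggacAgagcgtcactttcc
KIF3B, chr20:32310748-32310776, plus strand, coding sequence (CDS): tagaagagactctgAccactctgcgatat
KIF21B, chr1:201009015-201009043, minus strand, intron: gtagatgagctaagGggatttggcccagg
KIF27, chr9:83903342-83903370, minus strand, CDS: tcaatcgagaagggAgtcctgatacaaat

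In all, 23 of 42 kinesin genes (54.8%) had an exonic peak in at least 1 replicate, against 44.7% of protein-coding genes. Recurrence was uneven between the classes. An exonic peak was present in both replicates for 6 of 15 transport kinesins, namely KIF1B, KIF1C, KIF3B, KIF5B, KIF13B and KIF16B, and for 1 of 15 mitotic kinesins, KIF18B. Over all protein-coding genes the share was 31.6%, against 40.0% of the transport kinesins (Wilson 95% interval 19.8 to 64.3) and 6.67% of the mitotic ones (interval 1.19 to 29.8). Of the other kinesins, KIF21B and KIF27 had a peak in both lists (16.7%, interval 4.70 to 44.8). Together 9 of 42 kinesin genes (21.4%, interval 11.7 to 35.9) were seen in both replicates, which is below the share of all protein-coding genes but with an interval that includes it. These intervals cover counting error only, and genes of a family are not replicates, so no test of the difference was made.

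The gap between the classes depended on the replicate. In replicate 1, 6 mitotic and 7 transport kinesins had an exonic peak, a mitotic share minus transport share of -6.67 percentage points (40.0% and 46.7%, with 37.3% of all protein-coding genes). In replicate 2 the numbers were 2 and 10, a mitotic share minus transport share of -53.3 points (13.3% and 66.7%, with 39.0% of all genes). With both lists required the difference was -33.3 points. Of the mitotic kinesins 5 had a peak in replicate 1 alone and 1 in replicate 2 alone, whereas of the transport kinesins 1 was seen in replicate 1 alone and 4 in replicate 2 alone. The counts thus differed by 1 gene in replicate 1 and by 8 genes in replicate 2.

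**Figure D1:**
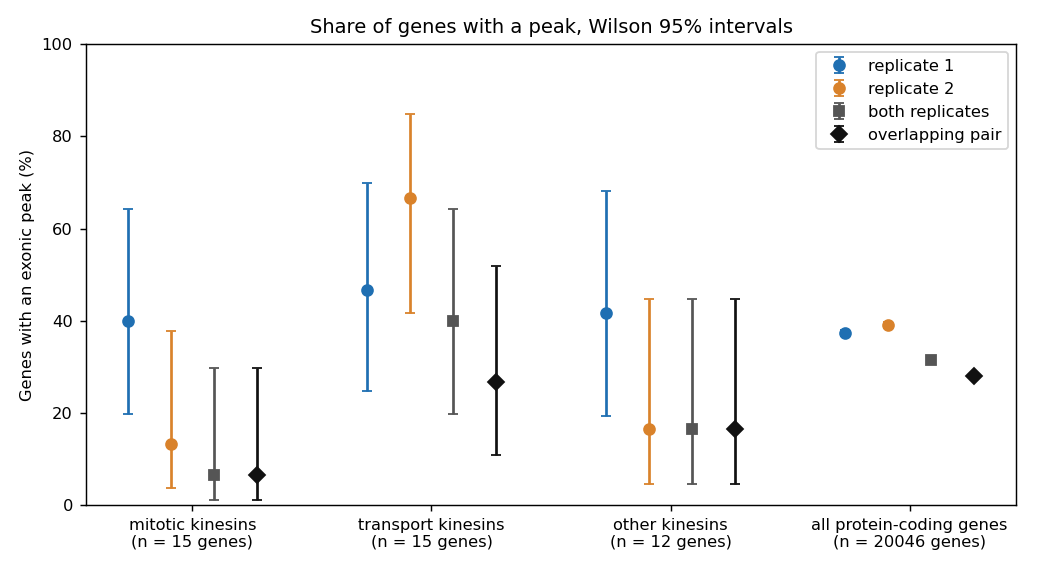
Percentage of genes with an exonic IGF2BP3 peak, by kinesin class and for all protein-coding genes, in each replicate, in both, and with an overlapping pair of peaks; bars are Wilson 95% intervals. Mitotic and transport kinesins are close in replicate 1 (40.0% and 46.7%) and far apart in replicate 2 (13.3% and 66.7%).

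The classes also differed in exonic length and base composition. The median exonic length was 4717 nt for mitotic and 8578 nt for transport kinesins, against 4416 nt for all protein-coding genes. Among protein-coding genes with an exonic length in the middle range of the mitotic kinesins (between their quartiles), 35.6% had a peak in both replicates, and among those in the middle range of the transport kinesins 43.7% did. The median GC content of the representative transcript was 45.6% for mitotic and 51.1% for transport kinesins. The part of length and base composition in the difference between the classes was not tested.

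When a shared site was required, 7 of 42 kinesin genes had an overlapping pair of peaks (16.7%, interval 8.32 to 30.6), against 28.0% of all protein-coding genes. These were the transport kinesins KIF3B, KIF5B, KIF13B and KIF16B, the mitotic KIF18B, and KIF21B and KIF27. The peaks of KIF1B and KIF1C lay at different places in the replicates. In all, the kinesin genes had 44 exonic peaks in replicate 1 and 49 in replicate 2, of which 24 and 25 were in KIF3B, KIF5B, KIF13B and KIF16B. By class 26.7% of transport kinesins (interval 10.9 to 52.0) had an overlapping pair, against 38.5% of protein-coding genes in their middle range of exonic length. For mitotic kinesins it was 6.67% (interval 1.19 to 29.8), against 30.8% of protein-coding genes in the middle range of theirs. KIF21B, which is not counted as transport, had 7 peaks in replicate 2, more than KIF3B, KIF5B or KIF16B. The number of peaks and the level of the RNA cannot be told apart.

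**Figure D2:**
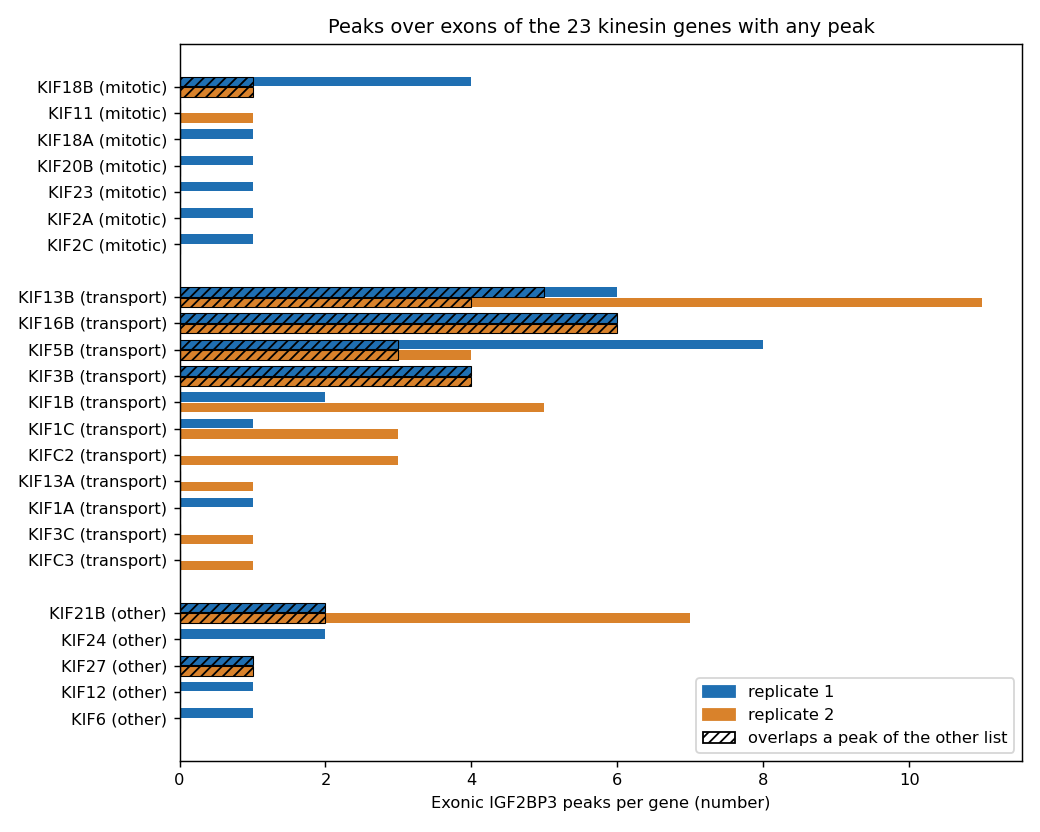
Number of exonic IGF2BP3 peaks in replicate 1 (blue) and replicate 2 (orange) for each of the 23 kinesin genes with any peak, with hatching for peaks that overlap a peak of the other list. All 6 KIF16B and all 4 KIF3B peaks are hatched in both replicates, whereas 5 mitotic kinesins have blue bars only.

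KIF5B is the broadly expressed heavy chain of kinesin-1, which moves mitochondria, lysosomes and vesicles. It had 8 exonic peaks in replicate 1 and 4 in replicate 2, and 3 sites were shared. The strongest covered 533 nt of the first exon, from the transcript start across the start codon, and also extended upstream of the annotated gene (chr10:32055893-32056615 in replicate 1 and chr10:32055893-32056649 in replicate 2). Its fold enrichment was 13.9 in replicate 1 and 14.0 in replicate 2, with 44 and 54 reads at the summit, and the summits were 4 bp apart. It stood at percentiles 97.0 and 95.7 of its lists, and the lower of these was the highest among the 22 shared pairs. The first sequence above is its summit.

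The second shared KIF5B site lay at the start of exon 2 of 26 (chr10:32048497-32048808), with a fold enrichment of 11.1 in replicate 1 and 5.91 in replicate 2, with 25 and 7 reads. Its summit was in coding sequence in replicate 1 and in the intron in replicate 2. The third was close to the end of the 3′ UTR (chr10:32009158-32009697), with 7.92 and 7.39 and with 67 and 24 reads. Both of these had more reads in replicate 1. A further 5 peaks of replicate 1, of which 2 were in the 3′ UTR, and 1 peak of replicate 2 over exon 25 had no counterpart. No exonic peak was found in either list for the paralogs KIF5A and KIF5C, which are mainly neuronal.

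KIF3B forms the kinesin-2 motor with KIF3A, which carries material along cilia and vesicles in the cytoplasm. All of its 4 peaks in each replicate overlapped. The first lay in the long exon 2 (chr20:32310268-32311005 in replicate 1 and chr20:32310266-32310562 in replicate 2), with a fold enrichment of 12.2 and 6.90 and with 40 and 13 reads. The second, over exons 4 and 5 (chr20:32316523-32316827), had 7.24 and 6.0 with 9 and 8 reads, and its summits lay in an intron. The other sites were in the 3′ UTR.

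Of the 3′ UTR sites of KIF3B, the one nearer the stop codon (chr20:32331870-32332359) had a fold enrichment of 10.1 in replicate 1 and 5.97 in replicate 2, with 53 and 22 reads. The distal one (chr20:32334059-32334397) had 5.09 and 4.15, with 26 and 15 reads. At each of the 4 sites replicate 1 was higher, by 1.12 to 3.08 times in reads. The largest of these ratios, at exon 2, was between summits 247 bp apart. KIF3A had no exonic peak in either list, and KIF3C, an alternative partner of KIF3A, had 1 peak, over its stop codon in replicate 2 (fold enrichment 9.86, 19 reads).

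KIF16B is a kinesin-3 motor that moves early endosomes. Its 6 peaks in each replicate all overlapped, which made it the kinesin gene with the most shared sites. The strongest covered the stop codon of the representative transcript in the last exon (chr20:16272983-16273650 in replicate 1 and chr20:16272986-16273647 in replicate 2), with a fold enrichment of 11 and 15.2 and with 32 and 51 reads. A pair of neighbouring sites lay in the long exon 19. The upstream one (chr20:16379623-16380298) had 6.14 and 11.1 with 28 and 66 reads, and the downstream one (chr20:16379049-16379343) had 4.18 and 6.14 with 19 and 36 reads. Here the summits of the replicates were 253 and 66 bp apart.

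Upstream of these, a site over exon 7 of KIF16B (chr20:16507980-16508272) had a fold enrichment of 6.73 in replicate 1 and 7.76 in replicate 2, with 15 and 20 reads. A site over exon 3 (chr20:16526164-16526468) had 10.1 and 10.3, with 18 and 19 reads. Its summits lay in an intron, as did the summit of replicate 2 at exon 7. The site at the first exon (chr20:16573273-16573565) had 5.67 and 11.5, with 8 and 20 reads. In both replicates this site extended upstream of the annotated gene, and in replicate 2 the summit lay there. Replicate 2 had more reads at each of the 6 KIF16B sites, by up to 2.50 times, which is the opposite order to KIF3B.

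KIF13B, a kinesin-3 motor that carries the DLG1 scaffold and phosphoinositide cargo, had 6 exonic peaks in replicate 1 and 11 in replicate 2. In the 3′ UTR, replicate 1 had 2 peaks (chr8:29067661-29068150 and chr8:29069220-29069806) and replicate 2 a single wide one that overlapped both (chr8:29068012-29069604). Their fold enrichment was 4.37 and 4.49 in replicate 1, with 52 and 47 reads, and 4.29 in replicate 2, with 62 reads. The 3′ UTR thus carried many reads but little enrichment over its own surroundings, at percentiles of 10.4 or less.

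The other KIF13B peaks lay over single internal coding exons of 40 in the transcript. The shared ones were over exons 9, 31 and 33. Exon 9 had a fold enrichment of 7.52 in replicate 1 and 8.50 in replicate 2, with 16 and 17 reads. Exon 31 had 6.99 and 9.38, with 15 and 23 reads. Exon 33 had 7.62 and 7.97, with 18 and 14 reads. For exons 9 and 33 the summits, to which these values belong, lay in the adjoining intron in both replicates. For exon 31 the summit was in the intron in replicate 1 and in coding sequence in replicate 2. Replicate 2 had a further 7 peaks over exons from 11 to 38 with fold enrichments from 4.19 to 8.27, and replicate 1 had 1, over exon 14. The summit sequences of the peaks over exon 14 in replicate 1 and exon 9 in replicate 2 occurred 2 and 3 times in hg38. The origin of those reads is less certain. The paralog KIF13A had 1 peak, in replicate 2 (fold enrichment 6.71, 13 reads), which touched an exon of a minor transcript only.

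**Figure D3:**
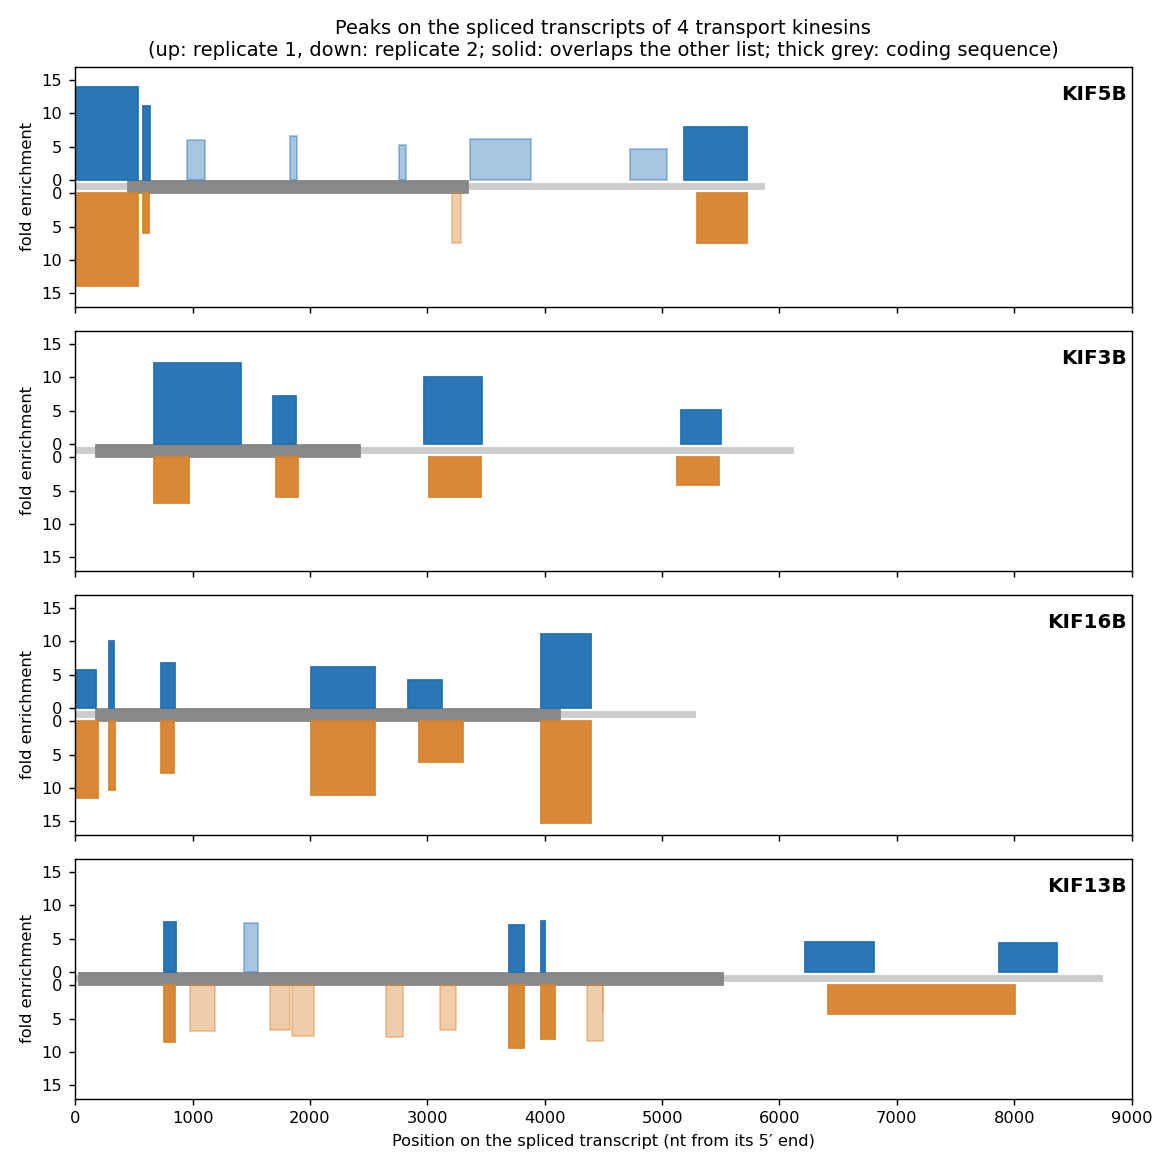
Exonic peaks of KIF5B, KIF3B, KIF16B and KIF13B on their representative spliced transcripts, as nt from the 5′ end, with bar height as fold enrichment (replicate 1 upwards, replicate 2 downwards). Solid bars overlap a peak of the other list, pale bars do not, and the thick grey part is coding sequence. KIF3B and KIF16B have solid bars alone. KIF5B and KIF16B are covered at the first exon in both replicates, by peaks that also extend upstream of the gene.

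The remaining transport kinesins had no shared site. KIF1B, a kinesin-3 motor of mitochondria and synaptic vesicle precursors, had 2 peaks in replicate 1 and 5 in replicate 2, none overlapping. The strongest in replicate 2 was at its first exon, with a fold enrichment of 13 and 22 reads. One of the others, over exon 42, had a summit sequence that occurred 4164 times in hg38 and cannot be placed with confidence. KIF1C, which moves dense-core vesicles and mRNA, had 1 peak over its stop codon in replicate 1 (fold enrichment 5.01, 20 reads) and 3 coding peaks in replicate 2, at 4.56 to 5.89. KIF1A, mainly neuronal, had 1 peak in replicate 1 with 8 reads (fold enrichment 6.71). The minus-end motors KIFC2 and KIFC3 had peaks in replicate 2 alone. KIFC2 had 3, with a fold enrichment of at most 5.3, and KIFC3 had 1, with 6.18 and 17 reads. KIF3A, KIF5A, KIF5C and KIF17 were the transport kinesins with no exonic peak in either list.

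Among the mitotic kinesins, only KIF18B recurred. It limits the growth of astral microtubules and helps to position the spindle. It had 4 peaks in replicate 1 and 1 in replicate 2, and the shared site spanned the last intron with both adjoining exons (chr17:44925963-44926564 in replicate 1 and chr17:44926091-44926529 in replicate 2). Its fold enrichment was 9.53 in replicate 1 and 9.06 in replicate 2, with 92 and 44 reads. The pileup in replicate 1 was the largest of any kinesin peak. The summits, 10 bp apart, were intronic in the representative transcript and in the 3′ UTR of other transcripts. Without this gene no mitotic kinesin had a peak in both lists.

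Of the remaining mitotic kinesins, 5 had a single peak in replicate 1. KIF2A and KIF2C, which shorten microtubules from their ends, had a 3′ UTR peak with a fold enrichment of 10.3 and 25 reads and a peak over the stop codon with 7.30 and 14 reads. The KIF2A peak also overlapped an exon of DIMT1 on the opposite strand. KIF18A, which aligns chromosomes, had 9.46 with 14 reads, in a peak that touched exon 12 but had its summit in an intron. KIF23, a motor of the central spindle, had 7.30 with 14 reads, and KIF20B, which acts in cytokinesis, had 6.52 with 8 reads in the 3′ UTR. The KIF23 summit was intronic in the representative transcript and in a non-coding exon of other transcripts. Apart from KIF2A, these single peaks had 14 reads or fewer.

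KIF11, the motor that separates the spindle poles, had 1 peak in replicate 2 (fold enrichment 8.50, 13 reads), which did not touch an exon of its representative transcript and overlapped an exon of IDE on the other strand. The summit of this peak lay upstream of the annotated KIF11 gene. No exonic peak was found in either list for KIF2B, KIF4A, KIF4B, KIF14, KIF15, KIF20A, KIF22 and KIFC1. Since KIF4B is an intronless copy of KIF4A, reads of either could have been placed on the other, but neither had a peak.

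KIF21B, a kinesin-4 motor that also restrains microtubule growth, led the other kinesins, with 2 peaks in replicate 1 and 7 in replicate 2. The shared sites were over exon 3 (fold enrichment 8.61 in replicate 1 and 6.44 in replicate 2, with 24 and 17 reads) and exon 13 (6.03 and 6.96, with 19 and 17 reads). All summits of these shared peaks lay in introns, and only 34 to 84 bp of each peak were exonic. KIF27, a relative of the Hedgehog regulator KIF7, had 1 shared site in exon 4, with 6.93 and 6.15 and with 11 and 7 reads. KIF12 and KIF24 had peaks in replicate 1 alone, 1 and 2, at fold enrichments from 4.23 to 5.14. KIF6 had 1 there, with 7 reads and outside the exons of its representative transcript. The paralog KIF21A had no exonic peak, nor had KIF7, KIF9, KIF19, KIF25, KIF26A and KIF26B.

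Taken over sites, private peaks outnumbered shared pairs. There were 22 unpaired kinesin peaks in replicate 1 and 28 in replicate 2, beside 22 overlapping pairs. Over all exonic peaks 6729 and 6848 were unpaired, beside 10921 and 10955 that overlapped the other list. In replicate 1, 22 of 44 kinesin peaks (50%, interval 35.8 to 64.2) overlapped the other list, against 61.9% of 17650 exonic peaks of protein-coding genes. In replicate 2 it was 21 of 49 (42.9%, interval 30.0 to 56.7), against 61.5% of 17803, a share above the interval. The mean over the replicates was 46.4% ± 5.05 (SD, n = 2). The share was 64.3% and 43.6% for transport kinesins, and 1 of 9 and 1 of 2 peaks for mitotic ones. Peaks of a gene share its RNA and are not independent, so the intervals are too narrow and no test was made.

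Strength did not set the kinesin peaks apart by much. Their median fold enrichment was 6.66 in replicate 1 and 6.71 in replicate 2, against 6.82 and 7.11 for all exonic peaks, and their median pileup was 21 and 20 reads, against 24 and 23. By class the median fold enrichment of mitotic kinesins was 7.30 over 9 peaks in replicate 1 and 8.78 over 2 peaks in replicate 2. It was 6.72 and 6.71 for transport kinesins and 5.14 and 6.30 for other kinesins. Paired kinesin peaks had medians of 7.38 and 7.39 and unpaired ones 5.93 and 6.4. In 11 of 22 pairs replicate 1 had more reads, and in the other 11 replicate 2 did.

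**Figure D4:**
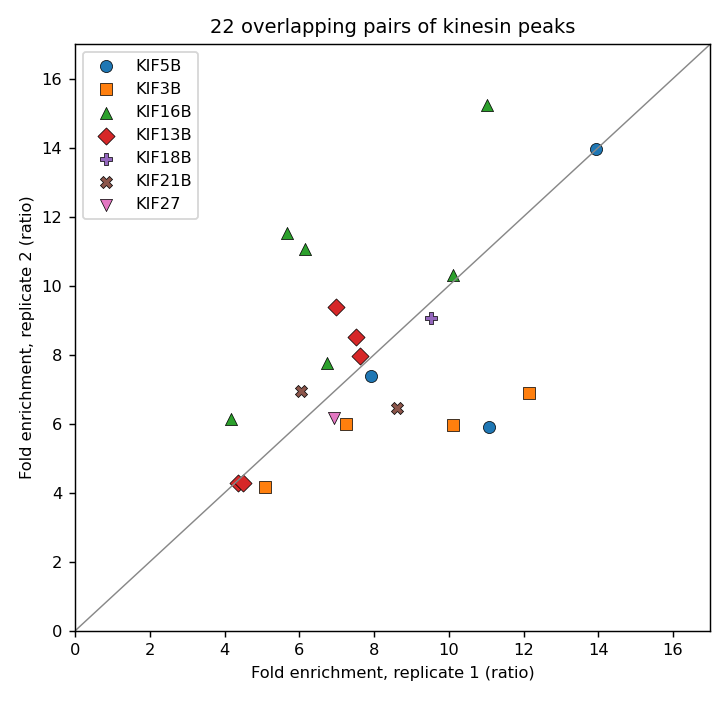
Fold enrichment of the 22 overlapping pairs of kinesin peaks in replicate 1 (horizontal) and replicate 2 (vertical), 1 symbol per gene, with the line of equal values. All KIF16B pairs lie above the line and all KIF3B pairs below it, while the KIF5B site at the first exon lies on it at 13.9 and 14.0.

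On the transcripts, most kinesin peaks reached coding sequence, but most summits lay outside it, as over all exonic peaks. A base of coding sequence was touched by 70.5% and 79.6% of kinesin peaks, against 74.8% and 74.8% of all exonic peaks. The summit itself was in coding sequence for 13 of the 44 peaks of replicate 1 and for 18 of the 49 of replicate 2. Over all exonic peaks it was there for 6137 of 17650 and for 6179 of 17803. The kinesin summit was in a 3′ UTR for 16 and 10 peaks, against 4633 and 3714 of all exonic peaks. It was outside the exons of the gene for 11 and 17 kinesin peaks. These last were in introns, except that in replicate 2 the KIF11 summit and the KIF16B summit at the first exon lay upstream of the gene. A 3′ UTR was touched by 38.6% and 28.6%, against 35.5% and 29.7%. Stop codons were covered by 9.09% and 12.2% (4 and 6 peaks), with intervals of 3.59 to 21.2 and 5.73 to 24.2, against 18.6% and 17%. A 5′ UTR was touched by 6.82% and 10.2% (3 and 5 peaks, intervals 2.35 to 18.2 and 4.44 to 21.8), against 15.3% and 24.7%. In replicate 2 the upper end of the latter interval lay below the share of all exonic peaks.

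Most kinesin peaks fell on single exons. In the representative transcripts 37 of 44 peaks of replicate 1 and 42 of 49 of replicate 2 reached 1 exon, and 21 and 26 of these were internal exons. These counts were not set beside all exonic peaks, so they do not mark the kinesin peaks as different. Over all kinesin peaks the summit was outside the exons of the gene for 25% and 34.7%, against 27.2% and 26.8% of all exonic peaks. Peaks over a short exon could thus extend into the adjoining intron, as seen at KIF13B and KIF21B.

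Because GGAC is the core of many m6A sites, the summit base with 50 nt upstream and 50 nt downstream was searched for GGAC on the gene strand. It was found in 12 of 44 kinesin windows in replicate 1 (27.3%, interval 16.3 to 41.8) and 17 of 49 in replicate 2 (34.7%, interval 22.9 to 48.7). The shares over all exonic peaks were 29.4% and 32.4%. The longer TGGAC, every match of which is also a GGAC match, was in 9.09% and 10.2% of kinesin windows, against 10.0% and 10.1%. The shares over all peaks lay within the counting intervals of the kinesin windows.

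Of the 6 recurrent sites printed above, 4 held GGAC within the stretch that both replicates shared. These stretches are long (212 to 723 bp), and on average over the replicates 75% of whole kinesin peaks held GGAC, so the count is no more than that share. The match nearest to the summit of replicate 1 is given with 12 nt on each side, on the gene strand, with the motif in capitals, to show where it lies relative to the summit.
KIF5B, chr10:32056343-32056370, 5′ UTR, 21 nt from the summit: ggcagagcgggcGGACgggtaggcccgg
KIF16B, chr20:16273248-16273275, CDS, 15 nt from the summit: acagcagccacgGGACggggtagagcca
KIF18B, chr17:44926232-44926259, 3′ UTR of some transcripts, 1 nt from the summit: gctggaggacggGGACagagcgtcactt
KIF21B, chr1:201009063-201009090, intron, 46 nt from the summit: agtgtggcttcaGGACcaagaaagcagc
The KIF5B and KIF18B stretches held 5 matches each and that of KIF16B 4. The printed sites of KIF3B and KIF27 held none, nor did the other shared KIF5B sites, at exon 2 and at the end of the 3′ UTR. A match is a description of the sequence, and whether any of these adenosines is methylated was not measured here.

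The replicates differed in base composition where they did not overlap. The median GC content of the same windows was 39.1% for the 22 unpaired kinesin peaks of replicate 1 and 58.4% for the 28 of replicate 2. The paired peaks were closer, at 47.0% and 51.5%. The same held over all exonic peaks, with 42.6% and 60.4% for unpaired and 54.5% in both lists for paired ones. The 5 mitotic kinesins seen in replicate 1 alone had transcripts with a median GC content of 37.6% (34.3 to 50.04), and the 4 transport kinesins seen in replicate 2 alone of 60.01% (48.6 to 67.2). The single genes of the opposite kind went the other way, with 61.0% for the transport kinesin KIF1A, seen in replicate 1 alone, and 39.3% for the mitotic KIF11, seen in replicate 2 alone. Over all kinesins the medians were 48.5% for the 9 genes private to replicate 1 and 56.0% for the 5 private to replicate 2, and over all protein-coding genes 45.1% and 51.5%. The part of base composition in the class difference was not tested.

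**Figure D5:**
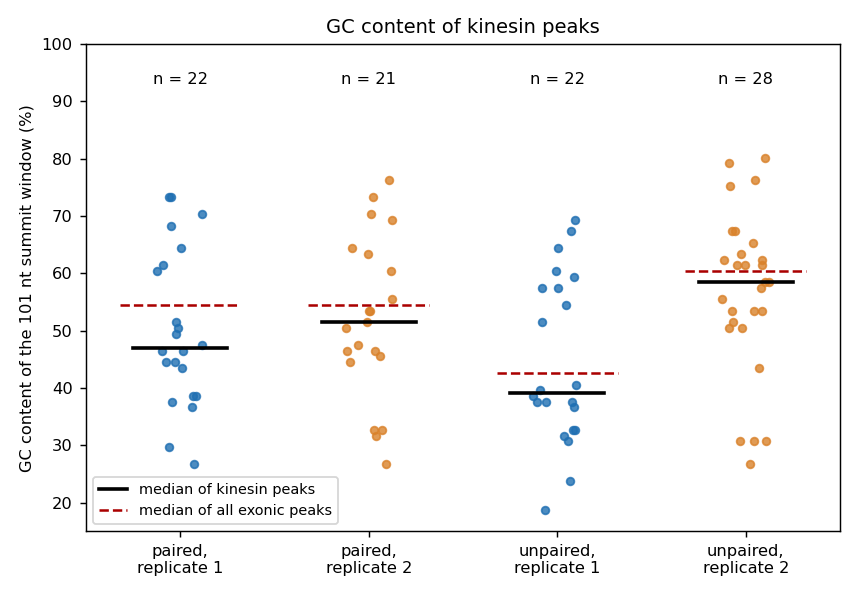
GC content of the window around each kinesin summit (50 nt upstream and 50 nt downstream), for peaks that overlap the other list (paired) and peaks that do not, by replicate, with the median of kinesin peaks (black) and of all exonic peaks (dashed red). The unpaired kinesin medians, 39.1% for replicate 1 and 58.4% for replicate 2, lie farther apart than the paired ones.

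The partners of the motors were listed as well, with 12 genes of the spindle and the midzone and 14 light chains, adaptors and scaffolds of transport. These lists were chosen with earlier results of these data known. All 12 mitotic partners had an exonic peak in replicate 1 and 7 in replicate 2, against 37.3% and 39.0% of all protein-coding genes. Thus 7 of them (58.3%, interval 32 to 80.7) were seen in both. PRC1, which bundles midzone microtubules and recruits kinesins there, reached a fold enrichment of 8.21 in replicate 1 and 8.71 in replicate 2. AURKA, a spindle pole kinase, reached 9.46 and 11.2. CENPE, a kinesin of the kinetochore whose symbol keeps it out of the list, had 1 peak in each replicate at different places (6.72 and 6.67). RACGAP1, ECT2, TPX2, AURKB and BIRC5 had peaks in replicate 1 alone. The mitotic partners were thus seen in both lists at a share above that of all protein-coding genes (31.6%), and no test was made.

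Of the 14 transport partners 6 (42.9%, interval 21.4 to 67.4) were seen in both replicates, all with an overlapping pair. The interval includes the share of all protein-coding genes (31.6%). Their median exonic length was 6432.5 nt, against 4416 nt for all protein-coding genes. Among protein-coding genes in the middle range of exonic length of the transport kinesins the share was 43.7%. BICD2, a cargo adaptor of dynein and kinesin-1, had 7 peaks in each list and all overlapped. TRAK1, which links mitochondria to kinesin-1, had 9 and 10, and SPAG9, a kinesin-1 scaffold, had 9 and 8. KIFAP3, the third subunit of the KIF3A and KIF3B motor, had 2 peaks in each list and 1 shared site. TRAK2 and HAP1 were the others with a shared site. Of the kinesin light chains, which bind KIF5B, KLC1, KLC2 and KLC4 had peaks in replicate 2 alone and KLC3 in neither. KIFBP, MAPK8IP1, MAPK8IP2 and MAPK8IP3 had none.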

How the data were processed

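The authors crosslinked OE-19 cells, made IGF2BP3 LACE-seq libraries and deposited 1 peak list per replicate, on hg38. Their methods name Bowtie and Piranha, whereas per the labels the processing used fastp, HISAT2 and MACS2, and the deposited files have the MACS2 layout. The fold enrichment is a deposited ratio over local background, p-values and q-values were deposited on the −log10 scale (lowest −log10 q 2.18 and 2.15), and the deposited score column follows the q-value and was not used. Peaks were called per replicate without strand. From fold and p-value a whole summit pileup was recovered for 21142 of 21142 and 20799 of 20799 peaks (tolerance 0.001 on the −log10 scale, smallest pileup 4 reads). The number of reads is unknown.

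Peaks were joined to GENCODE 44 exons and compared between lists from 1 shared bp. The representative transcript was MANE Select or Ensembl canonical. Bases were classed as CDS, 3′ UTR, 5′ UTR and other exon, in that order, over all transcripts. Percentiles rank fold enrichment within a list. Sequences came from hg38, and summit 31-mers were counted on its primary and unplaced sequences. Shares have Wilson 95% intervals, which cover counting error only. With a single group of 2 replicates, which are not stated to be separate cultures, no test was made. Kinesin classes, partner lists and rules were chosen with earlier results of these data known. All 42 kinesins are named, with values for those that have a peak, and the sequences are those of the shared site of each gene whose lower fold percentile was highest, with KIF13B not printed. Overlap code was tested on simulated data. Python 3.11.15, pandas 2.3.3, SciPy 1.17.1 and pysam 0.24.0 were used.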

Additional observations from a re-analysis of the deposited data

How the results depend on the processing

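Alternatives changed the exon rule, the transcripts, the q-value minimum, the treatment of overlapping genes, the overlap rule, the role of KIF2A, KIF4B, KIF21A and KIF21B, the motif window and the replicates used. Keeping only peaks whose summit 31-mer occurs in hg38 at a single place was added after the data were seen. Of 66 alternative values for 8 results, 55 moved by less than 1 SD (counts by less than 1.5 times), 11 moved and 0 reversed. With 2 replicates, leaving out 1 moves a mean by less than 1 SD by construction, so those values say nothing about stability. The mitotic share minus transport share of -33.3 points was -34.5 to -20.0 points under the alternatives that used both lists, and -53.3 to -6.67 points with a single list, a range that counts as less than 1 SD only because the replicates are this far apart. The number of kinesin genes with a peak, 9 in both lists, was 14 to 18 with a single list. With summits in exons it was 8, and the genes with an overlapping pair fell from 7 to 6, without KIF21B. The median fold enrichment of 6.69 became 6.12 with summits in exons, 6.76 with a −log10 q of at least 5 and 6.73 without peaks over other genes. With summits in exons the shares of peaks that touch coding sequence (75%), cover a stop codon (10.7%) or hold GGAC (31%) became 66.2%, 13.9% and 38.6%, and GGAC was in 75% of whole peaks. The share of peaks that overlap the other list, 46.4%, fell to 41.0% when shared bases had to make up 50% of both peaks and to 25.9% with summits within 50 bp. No paired analysis was possible because the 2 samples form a single group. Peaks with under 10 reads at the summit, such as that of KIF27 in replicate 2, lie near the limit of detection.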

Other observations

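A few kinesin genes had peaks inside the gene that touched none of their exons and so were not counted above. KIF5C, KIF9 and KIF24 had 1 such peak in each list. KIF7 had 1 in replicate 1, and KIF1A, KIF11, KIF13B and KIFC3 had 1 each in replicate 2. Peaks have no strand, so which transcript these belong to cannot be told apart.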
